A study of Drosophila melanogaster with 3 samples.

Results

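The clustered mitochondrial tRNAs of the major strand of Drosophila melanogaster are 7 of the 22 tRNA genes of the fly mitochondrial genome. They were picked out by gene symbol and cluster from a deposited table of 3546 noncoding genes: Lys-CTT and Asp-GTC, which lie between the mRNA genes COII and ATP8, and Ala-TGC, Arg-TCG, Asn-GTT, Ser-GCT and Glu-TTC, which lie between ND3 and ND5. All 7 had reads, and 5 of them had an adjusted p-value. The major strand is used here for the plus strand of the annotation, which encodes most of the genes.

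Animal mitochondrial DNA is transcribed on both strands into long precursors that carry mRNAs, rRNAs and tRNAs end to end. The tRNAs are cut out by RNase P at their 5′ ends and by RNase Z at their 3′ ends, and in doing so they also free the neighbouring mRNAs. They are made by the mitochondrial RNA polymerase, whereas nuclear tRNAs are made by RNA polymerase III, and they serve only the mitochondrial ribosome, which makes subunits of the respiratory chain and ATP synthase.

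The study sequenced small RNA of whole adult male heads. In both groups nSyb-GAL4, a driver active in neurons, was combined with tub-GAL80ts, a temperature-sensitive repressor of GAL4, and flies were raised at 18 °C and kept at 29 °C for 4 days after eclosion. The Sxl-RAC group carried UAS-SxlRAC, which encodes a version of Sex-lethal, an RNA-binding protein, and the control group carried UAS-mCherry at the attP2 site. Of these, 3 Sxl-RAC samples are listed in the labels. The comparison the authors deposited was found to hold 3 Sxl-RAC and 3 control libraries. The driver acts in neurons, while the libraries also hold RNA of glia, muscle, fat and other cells of the head, so that fewer cells of a type and less RNA per cell cannot be told apart. The labels name polyA RNA as the molecule although the libraries were made with a small RNA kit, and no label says that the samples came from separate crosses, so p-values measure only the spread between these libraries.

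The authors' deposited table gives 1 mean normalised count per gene over all libraries, a log2 fold change and the standard error (SE) of that change, and the p-values of DESeq2's Wald test. Genes with a deposited adjusted p under 0.05 are referred to as called. The tRNA genes formed a run of their own with their own scaling. The reads of each library were worked out from the deposited values for 21 of the 22 mitochondrial tRNA genes, and Ser-GCT had too many reads for that. Libraries are named deepest, middle and shallowest within their group by size factor, the number by which DESeq2 divides a library's counts. The controls had size factors of 2.19, 1.16 and 0.819, and the Sxl-RAC libraries had 0.956, 0.817 and 0.625. No library could be tied to a listed sample.

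On the tRNA scale, 3 of the 5 clustered genes with an adjusted p were higher in Sxl-RAC and none was lower. They were Ser-GCT, Lys-CTT and Arg-TCG, by 1.37 to 1.63-fold. In the tRNA run as a whole, 15.4% of 149 genes were called higher and 21.5% in either direction. Over all classes 3.37% of 1128 genes were called higher and 5.14% in either direction. The median log2 fold change was 0.54 over the clustered genes, 0.02 over all 299 tRNA genes with reads and -0.04 over all 1379 genes with reads. The clustered median is the value of Asn-GTT (SE 0.402), and it also ranks Asp-GTC and Glu-TTC, which had very few reads. The inverse-variance weighted mean of the clustered genes was 0.51. On the scale of the microRNA run, which moved each tRNA value by -0.43, none of the clustered genes was called and their median was 0.11. On that scale the median of the tRNA genes was -0.41, 90 of the 149 genes (60.4%) were called, all of them lower, and 0% were called higher. Which scale holds in these heads was not tested, so the clustered genes are described below relative to the other tRNAs.

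The members differed in level far more than the groups did. Per base of gene length, the mean normalised count of Ser-GCT in the authors' deposited table was 43.3, that of Lys-CTT 3.99, that of Arg-TCG 2.20 and that of Ala-TGC 1.40. Asn-GTT followed with 0.374 per base, and Asp-GTC and Glu-TTC lay at 0.0147 and 0.00542. Ser-GCT therefore stood 10.9-fold above Lys-CTT and 115.9-fold above Asn-GTT per base, and it held 84.5% of the summed mean counts of the 7 genes. The clustered genes held 95.1% of all mitochondrial tRNA mean counts but 0.603% of those of all tRNA genes. In the libraries, Arg-TCG and Ala-TGC overlapped per base in the controls, at 1.40 to 2.01 and 1.19 to 1.50, and did not overlap in Sxl-RAC, at 2.47 to 2.95 and 1.34 to 1.73. Asp-GTC and Glu-TTC overlapped in both groups, and the other neighbours in this order that could be read per library did not overlap in either group.

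**Figure D1:**
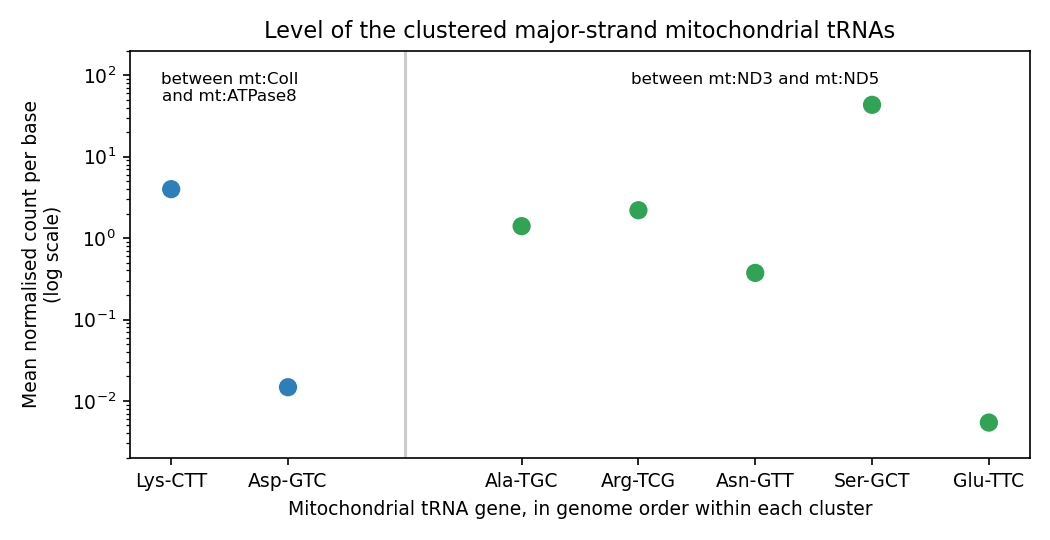
Mean normalised count per base of gene length (log axis) of the 7 clustered mitochondrial tRNA genes, from the authors' deposited table and coloured by cluster. Ser-GCT, at 43.3 per base, stands above the others drawn, and Asp-GTC and Glu-TTC are at the bottom.

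Genes side by side in a cluster had very different levels. On mitochondrial DNA of build BDGP6.54, Arg-TCG (6062-6124), Asn-GTT (6125-6190), Ser-GCT (6191-6258) and Glu-TTC (6259-6325) follow each other with 0 bases between them. The member with the highest level per base, Ser-GCT at 43.3, thus lies next to the member with the lowest, Glu-TTC at 0.00542. Ala-TGC (5983-6047) lies 21 bases after ND3 and 14 bases before Arg-TCG. In the other cluster Lys-CTT (3768-3838) starts right after COII, and Asp-GTC (3840-3906) lies 1 base after it and right before ATP8. The level of Lys-CTT was 270.7-fold that of Asp-GTC per base. Asp-GTC and Glu-TTC had only 5 and 3 reads in all, so their levels and ratios to them are rough. The counting settings are not given, so how a read that spans the end of 1 gene and the start of the next was counted is not known. The deposited values also do not say whether a read came from a whole tRNA, a fragment or a precursor.

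Ser-GCT (FBgn0013705), the serine tRNA that lacks a D arm in animal mitochondria, had the highest level per base of the mitochondrial tRNAs and was higher in Sxl-RAC. The authors' deposited table gave a mean normalised count of 2946 and a log2 fold change of 0.46 (SE 0.107; DESeq2 Wald test, adjusted p = 0.00139). With 3 libraries a group, these values imply mean counts of 2481 in the controls and 3411 in Sxl-RAC, or 1.37-fold (95% interval 1.19 to 1.59). Its reads in single libraries were not worked out, so overlap between the groups is not known for it.

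Overlap of normalised counts was looked at on the tRNA scale only. There Lys-CTT (FBgn0013697), which carries lysine and is the first gene of the COII-ATP8 cluster, was higher in every Sxl-RAC library than in every control. Its normalised counts were 218.0, 168.9 and 275.8 in the deepest, middle and shallowest control libraries and 330.6, 384.2 and 321.8 in those of Sxl-RAC. The means were 220.9 ± 53.5 and 345.5 ± 33.8 (SD, n = 3 each; two-sided exact permutation p = 0.1, the smallest that 3 against 3 libraries can give). The authors' deposited table gave a log2 fold change of 0.66 (SE 0.159; DESeq2 adjusted p = 0.00175), or 1.58-fold (95% interval 1.27 to 1.96).

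Arg-TCG (FBgn0013704), the arginine tRNA, behaved in the same direction and its groups did not overlap either. Its normalised counts were 88.0, 105.2 and 126.9 in the controls and 169.5, 186.0 and 155.3 in Sxl-RAC, from the deepest to the shallowest library. The means were 106.7 ± 19.5 and 170.3 ± 15.4 (SD, n = 3 each; two-sided exact permutation p = 0.1). In the authors' deposited table the log2 fold change was 0.70 (SE 0.183; DESeq2 adjusted p = 0.00427), or 1.63-fold (95% interval 1.27 to 2.09). Lys-CTT and Arg-TCG come from different clusters. The number of Lys-CTT reads per Arg-TCG read was close in the groups and overlapped, at 2.09 ± 0.442 in the controls and 2.03 ± 0.0684 in Sxl-RAC (SD, n = 3 each). Of the other mitochondrial tRNA genes, Ile-GAT, Thr-TGT and Pro-TGG were also higher in every Sxl-RAC library than in every control. Tyr-GTA was lower in every Sxl-RAC library. Thr-TGT had only 20 reads in all, 4, 1 and 3 in the controls and 4 in each Sxl-RAC library. It had no adjusted p, and at this depth its separation can hang on single reads. Separation of the groups was thus not limited to clustered genes. The share of all tRNA genes whose groups did not overlap was not counted, so there is no background for it. For a gene with no difference, the permutation test gives such separation a probability of 0.1.

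Ala-TGC (FBgn0013689), the alanine tRNA upstream of Arg-TCG, did not pass the test. Its normalised counts were 80.7, 77.6 and 97.6 in the controls and 86.8, 112.6 and 91.3 in Sxl-RAC, so the groups overlapped. The means were 85.3 ± 10.8 and 96.9 ± 13.8 (SD, n = 3 each; two-sided exact permutation p = 0.4). The authors' deposited table gave a log2 fold change of 0.20 (SE 0.209; DESeq2 adjusted p = 0.630), or 1.15-fold (95% interval 0.863 to 1.52), an interval that includes the 1.37-fold of Ser-GCT.

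Asn-GTT (FBgn0013701), the asparagine tRNA between Arg-TCG and Ser-GCT, had a log2 fold change of 0.54 (SE 0.402; DESeq2 adjusted p = 0.378) in the authors' deposited table. Its normalised counts were 20.5, 19.8 and 20.7 in the controls and 46.0, 23.2 and 17.6 in Sxl-RAC. The deepest Sxl-RAC library, with 44 reads, stood alone, and the other 2 lay around the controls. When that library was left out, the log2 fold change was 0.02 (Wald test at the DESeq2 dispersion, adjusted p = 0.978), against 0.52 to 0.78 without any other single library.

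Asp-GTC (FBgn0013691), the aspartate tRNA, had 5 reads in all 6 libraries together, 2 in the controls and 3 in Sxl-RAC. Glu-TTC (FBgn0013692), the glutamate tRNA, had 3 reads in the controls and 0 in Sxl-RAC, and a count of 0 in that group allows up to 3 reads, or a mean normalised count of 1.25. No fold between the groups is given here for either gene at this depth, and neither had an adjusted p.

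**Figure D2:**
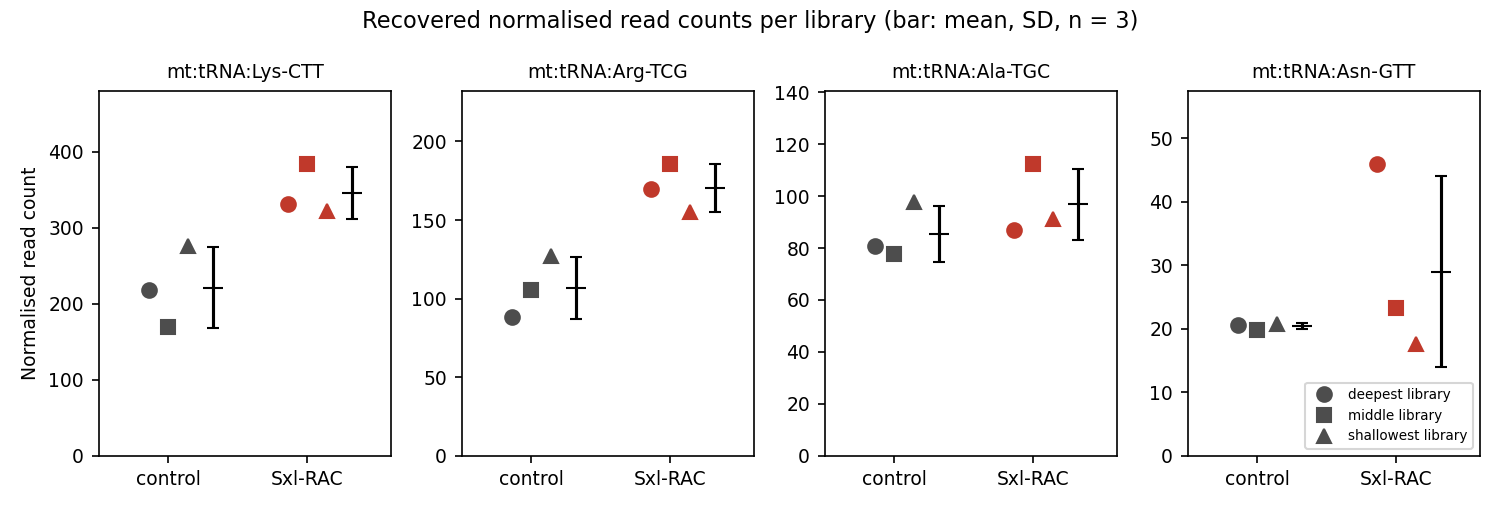
Normalised count in each library for Lys-CTT, Arg-TCG, Ala-TGC and Asn-GTT, controls in grey and Sxl-RAC in red. Symbols mark the deepest, middle and shallowest library, and bars the mean and SD (n = 3). The groups are apart for Lys-CTT and Arg-TCG, they overlap for Ala-TGC, and for Asn-GTT 1 Sxl-RAC library is high.

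Reads of the same library were then set against each other, since such a ratio does not depend on how libraries are scaled. These 8 ratios were chosen after the values had been seen. Permutation p-values were adjusted over all 8 and are given only for the 3 between lists, the clustered list without Ser-GCT. The ratios that rest on genes picked for their values are descriptions. Per read of the 8 minor-strand mitochondrial tRNA genes, the 6 clustered genes other than Ser-GCT had 4.45, 4.76 and 4.76 reads in the controls and 5.77, 6.63 and 6.24 in Sxl-RAC, from the deepest to the shallowest library. The means were 4.66 ± 0.176 and 6.21 ± 0.431 (SD, n = 3 each), with no overlap (two-sided exact permutation p = 0.1, adjusted p = 0.2 over the 8 ratios). The separation depended on a single minor-strand gene, the tyrosine tRNA Tyr-GTA, which had 52, 28 and 26 reads in the controls and 16, 17 and 5 in Sxl-RAC, or 27.7% and 15.1% of the minor-strand reads. Without Tyr-GTA the ratios were 6.01, 6.87 and 6.69 in the controls and 6.81, 8.24 and 6.81 in Sxl-RAC, so the groups overlapped, and the log2 difference of the means was 0.16 in place of 0.42. With any other of the 8 minor-strand genes left out, the groups did not overlap.

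Lys-CTT and Arg-TCG, both called higher, together held 77.4% of the reads of the 6 clustered genes. The 4 clustered genes without them, with 746 reads in all, had 1.16 ± 0.0944 reads per minor-strand read in the controls. In Sxl-RAC they had 1.23 ± 0.0453 (SD, n = 3 each), with overlap, and the log2 difference of the means was 0.09. Within the ND3-ND5 cluster, Arg-TCG had 1.09, 1.36 and 1.30 reads per Ala-TGC read in the controls and 1.95, 1.65 and 1.70 in Sxl-RAC. Every Sxl-RAC library had more Arg-TCG reads per Ala-TGC read than every control, a pair set side by side because their fold changes differed. Lys-CTT per Ala-TGC read also did not overlap, with means of 2.57 ± 0.343 and 3.58 ± 0.203 (SD, n = 3 each). Arg-TCG per Asn-GTT read overlapped, at 4.29 to 6.12 in the controls and 3.68 to 8.82 in Sxl-RAC.

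No difference was detected between the 6 clustered genes other than Ser-GCT and the 7 other major-strand tRNA genes. The latter are Ile, Met, Trp, Leu-TAA, Gly, Thr and Ser-TGA. Each of those 7 had log2 fold changes above 0 in the authors' deposited table, from 0.43 to 1.64 with a median of 0.77, and none of the 2 with an adjusted p was called. Reads of the 6 clustered genes per other major-strand read were 7.57 ± 1.64 in the controls and 6.52 ± 0.943 in Sxl-RAC (SD, n = 3 each). The groups overlapped (two-sided exact permutation p = 0.5, adjusted p = 0.571). With 3 libraries a group this p cannot fall under 0.1, so the test could not have shown a difference at 0.05. The other major-strand genes had 0.637, 0.505 and 0.756 reads per minor-strand read in the controls and 1.03, 0.885 and 0.966 in Sxl-RAC, without overlap (two-sided exact permutation p = 0.1, adjusted p = 0.2). Without Tyr-GTA these ratios were 0.859 and 0.730 in the deepest and middle controls and 1.06 in the shallowest, against 1.21, 1.10 and 1.06 in Sxl-RAC. The shallowest control then lay above the shallowest Sxl-RAC library, so the groups overlapped here too. The other major-strand and minor-strand lists rest on 484 and 633 reads in all, against 3307 for the 6 clustered genes.

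**Figure D3:**
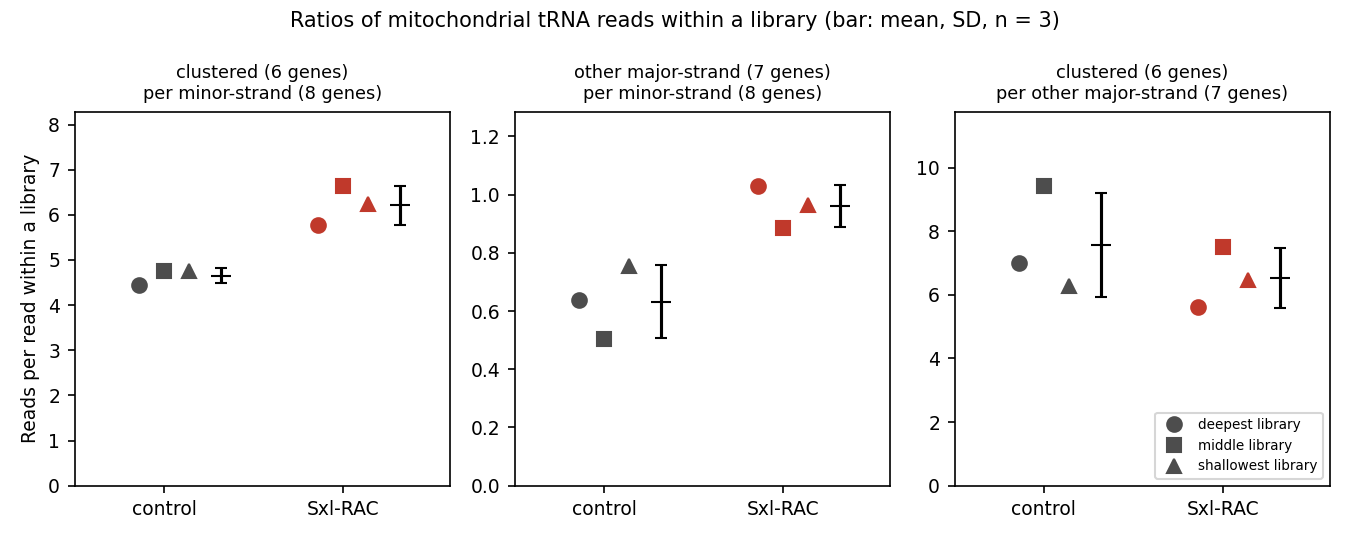
Reads of 1 list of mitochondrial tRNA genes per read of another within each library, for the controls and Sxl-RAC, with bars for the mean and SD (n = 3). The clustered list leaves out Ser-GCT. With all 8 minor-strand genes in the sum, both major-strand lists are higher per minor-strand read in all Sxl-RAC libraries, and without Tyr-GTA (not drawn) the groups overlap for both. The 2 major-strand lists overlap when set against each other.

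Of the 8 minor-strand genes, 5 had an adjusted p, none was called, and 5 lay above 0. Their median log2 fold change was 0.18, with a range of -0.75 to 0.96. The top of that range was Phe-GAA, the minor-strand phenylalanine gene 18 bases past Glu-TTC at the end of the ND3-ND5 cluster, with 0.96 (SE 0.438; DESeq2 adjusted p = 0.0993) in the authors' deposited table. The bottom was Tyr-GTA, with -0.75 (SE 0.428; DESeq2 adjusted p = 0.219) in the authors' deposited table, named after its values had been seen. It had the most reads of the minor-strand genes, 144 of 633, and its normalised counts were 23.7, 24.1 and 31.7 in the controls and at most 20.8 in Sxl-RAC, so every Sxl-RAC library lay below every control. The median of the clustered genes was 0.36 above that of the minor-strand genes, and 0.17 above it when genes under a mean count of 10 were left out. The 2 mitochondrial rRNAs, which are made from the minor strand and were tested in another run on another scale, had log2 fold changes of -0.44 (mt:lrRNA, SE 0.173, DESeq2 adjusted p = 0.269) and -0.56 (mt:srRNA, SE 0.383, DESeq2 adjusted p = 0.872) in the authors' deposited table.

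**Figure D4:**
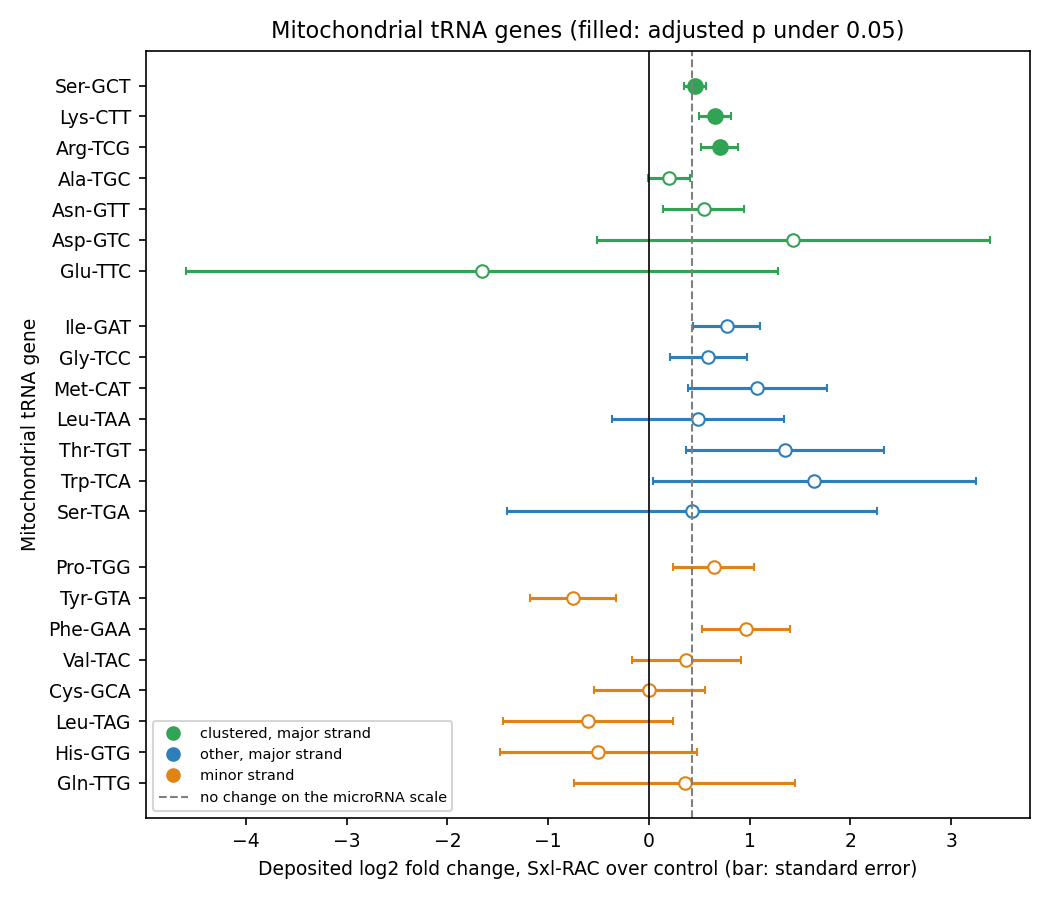
Deposited log2 fold change of the 22 mitochondrial tRNA genes with its standard error, filled where the adjusted p was under 0.05, with a dashed line at the value that means no change on the microRNA scale. Ser-GCT, Lys-CTT and Arg-TCG are the only filled points, and their values lie near or right of the dashed line.

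Nuclear tRNA genes for the same amino acids did not share 1 direction. Of the 277 nuclear tRNA genes with reads, 137 had an adjusted p, of which 20 were called higher and 9 lower, and their median log2 fold change was -0.01. All 19 nuclear Lys genes lay above 0 and 18 were called higher, with a median of 0.28. For Glu 6 of 19 were called lower (median -0.05), for Asp 2 of 14 (median -0.16) and for Ala 0 of 17 (median -0.29). For Arg 1 of the 4 genes with an adjusted p was called higher, with a median of 0.51 over 21 genes with reads, and the 10 Asn and 20 Ser genes had no adjusted p. Copies of a nuclear tRNA gene can share reads, so these counts of genes are not independent.

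Of 148 other tRNA genes whose mean count reached 10, the log2 fold changes nearest to the clustered median were those of tRNA:Gln-TTG-1-1 (0.55), tRNA:Gly-TCC-2-1 (0.51) and tRNA:Arg-CCT-1-1 (0.51) in the authors' deposited table. The likeness rests on 1 value per gene, with SEs of 0.589, 0.533 and 0.297 in the same order. The first of them had no adjusted p, and neither of the others was called.

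Markers of cell types were tested in other runs on other scales. In the authors' deposited table, lncRNA:noe, a neuronal noncoding RNA, had a log2 fold change of -1.69 (SE 0.339, DESeq2 adjusted p = 0.000166), and mir-124, a neuronal microRNA, had -0.12 with no adjusted p. The muscle microRNAs mir-1 and mir-133 had -0.46 (DESeq2 adjusted p = 1.41e-06) and 0.23 (DESeq2 adjusted p = 0.0173) in the authors' deposited table. The noncoding RNAs of male dosage compensation, roX1 and roX2, had -1.38 (DESeq2 adjusted p = 0.298) and -0.15 (DESeq2 adjusted p = 0.971) there. No marker had its reads worked out per library. The part of cell composition in the values of the clustered genes was not tested.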

How the data were processed

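The values used were those of 1 deposited table, in which the authors compared Sxl-RAC with the attP2 control. Per the file headers, the deposited base mean is a signal, read counts divided by size factors and averaged over libraries, the effect and its standard error are on the log2 scale, the Wald statistic is a score, and the p-value and adjusted p-value are the authors'. Per the submitters' processing notes, Trim Galore 0.6.7, Bowtie2 2.5.3, featureCounts 2.0.8 and DESeq2 2.11.40.8 were used, with no roles listed. Their settings, the genome build, the annotation and the use of strand are not given in the sources used here. The direction, Sxl-RAC over control, is that of the deposited file's name.

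Identifiers were matched to Ensembl annotation BDGP6.54 (3545 of 3546), whose coordinates are 1-based. Adjusting p-values by Benjamini-Hochberg within 6 classes gave the deposited adjusted p within 1% for all 1128 genes, so each class was taken as a run with its own size factors.

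Reads per library were recovered after the data had been seen. The 33 lowest distinct mean counts of the tRNA run could all be written as sums of whole reads over 6 libraries (tolerance 1.2e-08). For each gene, the whole reads were then sought that give its mean count, standard error and log2 fold change (within 2e-09) under the model of the authors' DESeq2 run. That model, a negative binomial fit with a Wald test, was rewritten for this purpose and used again for the fits that leave out a library. Each of the 132 tRNA genes searched had 1 assignment. For 3 of them with no reads in 1 group, Glu-TTC among them, it rests on the mean count alone. The assignment of Lys-CTT was chosen from 17916070 with the same mean count, and that of Arg-TCG from 604493. The nearest rejected ones missed the log2 fold change by 1.3e-08 and 1.3e-07, and accepted ones by at most 1.5e-09. As a check not used in the search, dispersions predicted from 78 low genes matched those of 4 higher ones to within 0.07%. The group of each library follows from the authors' fold changes of genes with reads in that library alone.

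Values were moved to the microRNA scale by comparing, between that run and the tRNA run, how far the groups differ in mean log2 size factor. Exact permutation tests used all 20 divisions of 6 libraries. Intervals of folds are Wald 95% intervals from the deposited standard errors. A count of 0 allows 3 reads, a limit that covers counting error only. Other thresholds, adjustments, filters, scales and weights, and leaving out each library or each minor-strand gene of a ratio, were tried. The members and lists were chosen with earlier results of these data known. Named genes were all members, the neighbouring minor-strand gene, the mitochondrial rRNAs, the 3 genes nearest to the members' median, and cell type markers. Tyr-GTA, Ile-GAT, Thr-TGT and Pro-TGG were added after their values had been seen. Python 3.11.15, numpy 2.4.6, scipy 1.17.1 and numba 0.67.0 were used.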

Additional observations from a re-analysis of the deposited data

How the results depend on the processing

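On the microRNA scale the count of called clustered genes fell from 3 to 0 and their median log2 fold change from 0.54 to 0.11. There Lys-CTT had 0.23 (adjusted p = 0.186), Arg-TCG 0.27 (adjusted p = 0.163), Ser-GCT 0.03 (adjusted p = 0.828) and Ala-TGC -0.23, a change of sign, by a Wald test with the deposited DESeq2 standard errors. Re-centring on the tRNA median (a shift of 0.04), a threshold of 0.1 and the 3 other ways of adjusting each left 3 called genes. The difference of medians from the minor strand was 0.36, and 0.32 with weighted means. That from nuclear tRNAs was 0.55, with 0.58 for genes of mean count at least 10 and 0.53 weighted. Leaving out each library, added after seeing the data, gave log2 fold changes of 0.50 to 0.83 for Lys-CTT, 0.56 to 0.83 for Arg-TCG, 0.07 to 0.29 for Ala-TGC and 0.02 to 0.78 for Asn-GTT. The adjusted p of that Wald test at the DESeq2 dispersion ranged from 0.000203 to 0.0253 for Lys-CTT and from 0.00134 to 0.0330 for Arg-TCG. No call changed in these 24 refits, which include those of Ala-TGC and Asn-GTT, not called to begin with. The dispersion, the size factors and the p-values of the other genes stayed those of all 6 libraries, so a left-out library still entered the error. Leaving out a library was not run for Ser-GCT, whose reads were not worked out, for Asp-GTC and Glu-TTC, or for the count of called genes. Leaving out each minor-strand gene of the ratios was also added after seeing the data. For the clustered genes other than Ser-GCT, the log2 difference per minor-strand read moved from 0.42 to 0.16 without Tyr-GTA. It was 0.62 without Phe-GAA and 0.56 without Pro-TGG. That of the other major-strand genes moved from 0.60 to 0.35 without Tyr-GTA. The groups overlapped in both ratios without Tyr-GTA and in neither without any of the 7 others. No paired analysis was possible because the recovered libraries carry no replicate number and the table has no column per sample. Depth limits Asp-GTC and Glu-TTC, with 5 and 3 reads.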
